A study of Rattus norvegicus with 138 samples.

Results

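The 7 genes described here are the opioid family of the rat, that is the 3 peptide precursor genes *Penk*, *Pdyn* and *Pnoc* and the 4 receptor genes *Oprm1*, *Oprd1*, *Oprk1* and *Oprl1*. They were chosen by name from the 32883 genes of each deposited table, which lists them as ENSRNOG00000008943 (*Penk*), ENSRNOG00000026036 (*Pdyn*), ENSRNOG00000014231 (*Pnoc*), ENSRNOG00000018191 (*Oprm1*), ENSRNOG00000010531 (*Oprd1*), ENSRNOG00000007647 (*Oprk1*) and ENSRNOG00000016768 (*Oprl1*). They were followed in punches of 3 brainstem regions of 46 female rats, the nucleus of the solitary tract (NTS), the caudal ventrolateral medulla (CVLM) and the rostral ventrolateral medulla (RVLM). The spontaneously hypertensive rats (SHRs, SHR/NHsd) numbered 5 at 8 wk of age, 5 at 10 wk, and 6 each at 12, 16 and 24 wk. The normotensive Wistar-Kyoto (WKY, WKY/NHsd) rats numbered 5 at 8 wk, 4 at 10 wk and 3 each at 12, 16 and 24 wk, and each rat gave 1 library per region. The study set out to follow the transcriptome of these autonomic regions while hypertension develops in SHRs. Both are inbred strains, so a strain difference holds every difference between their genomes, with the WKY rat as the control strain. The punches were bilateral and hold all cells of the tissue. Library names end in 1 or 2, and what the ending stands for is not given. The ending 2 marks every library of 10 wk and, outside 10 wk, those of 3 of 5 WKY rats of 8 wk and of 1 SHR each of 12 and 24 wk. For 2 CVLM libraries, replicate 5 of each strain at 8 wk, 1 label gave 8 wk and another 10 wk, and they were kept at 8 wk.

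Opioid peptides are cut from large precursor proteins in secretory vesicles. Proenkephalin (*Penk*) yields enkephalins, prodynorphin (*Pdyn*) yields dynorphins and prepronociceptin (*Pnoc*) yields nociceptin. Enkephalins act mainly on the delta (*Oprd1*) and mu (*Oprm1*) receptors, dynorphins on the kappa receptor (*Oprk1*) and nociceptin on its own receptor (*Oprl1*), and all 4 receptors couple to inhibitory G proteins that dampen neuronal firing and transmitter release. In the medulla, opioid peptides and their receptors are known for their part in the baroreceptor reflex and in sympathetic outflow, with the NTS as the first station of baroreceptor afferents, the CVLM as its inhibitory relay and the RVLM as the main premotor region of sympathetic nerves.

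Levels are given as CPM, the expected counts of a gene as a rate over the library's total after scaling by TMM factors, and differences as log2 fold changes with their standard error (SE) from edgeR fits over all genes. A difference was called at a Benjamini-Hochberg adjusted p under 0.05 over all genes of that comparison. Library totals ran from 5904581 to 17889417 counts, with a median of 10143036. CPM values are not corrected for transcript length, so levels are compared between samples and not between genes. *Oprd1* was scarce, with 0 to 17 counts per library in the NTS and 0 to 22 in the RVLM, and it passed the filter on low counts in the CVLM only, where it had 0 to 49 counts. The other 6 genes passed in every region, which gave 19 tests of gene by region out of 21.

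The punches were checked against markers of the cells they should hold. *Pnmt*, the enzyme that makes adrenaline in C1 neurons of the RVLM, had a median of 19.7 CPM in the RVLM and 41.8 CPM in the CVLM, and *Dbh*, the enzyme that makes noradrenaline, 9.55 and 85.0 CPM. *Chat*, which marks cholinergic and motor neurons, had a median of 243 CPM in the RVLM against 18.5 CPM in the CVLM. The libraries labelled RVLM thus held more of the motor neuron markers and less of the catecholaminergic markers than those labelled CVLM. In tissue of this kind, fewer cells of a type and less RNA per cell cannot be told apart.

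The first question was how the 3 regions differed. Of 21 comparisons of a gene between a pair of regions, fitted within rats, 18 were called, with a background of 73.5% of all genes called for NTS against RVLM, 65.9% for NTS against CVLM and 54.5% for CVLM against RVLM.

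*Pdyn* had the largest differences between regions among the 7 genes. Its level was 78.7 ± 19.6 CPM (SD, n = 46 rats) in the NTS, 9.20 ± 4.88 CPM in the CVLM and 7.57 ± 4.84 CPM in the RVLM. The NTS was the higher region in 46 of 46 rats in both comparisons, 11.7-fold above the RVLM (log2 3.55, SE 0.17, adjusted p = 1.84e-35) and 8.68-fold above the CVLM (log2 3.12, SE 0.16, adjusted p = 1.99e-32). The CVLM and RVLM were close, with a log2 difference of 0.43 (SE 0.17, adjusted p = 0.0237) and the CVLM higher in 27 of 46 rats, and this small difference was not called without the libraries whose name ends in 2 outside 10 wk (log2 0.25, adjusted p = 0.219) or without the 2 rats with conflicting age labels (0.35, adjusted p = 0.0688).

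Of the 7 genes, 3 had a promoter entry in the RefSeq table of the rat build GRCr8, namely *Pdyn*, *Oprd1* and *Oprm1*. The 250 bases before the start of *Pdyn* (chr3:137366504-137366753, minus strand) are shown because this gene differed most between regions, and those of *Oprd1* (chr5:149625000-149625249, minus strand) because this scarce receptor gene had the largest mean strain difference of the family. Both are written 5′ to 3′, and capitals mark matches on either strand to TATAAA, known as the TATA box, or GGGCGG, known as the GC box.

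Pdyn: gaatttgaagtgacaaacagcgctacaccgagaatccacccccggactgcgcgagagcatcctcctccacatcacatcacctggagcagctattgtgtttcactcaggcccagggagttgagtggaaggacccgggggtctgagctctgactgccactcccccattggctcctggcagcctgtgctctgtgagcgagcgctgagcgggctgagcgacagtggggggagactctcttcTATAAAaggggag

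Oprd1: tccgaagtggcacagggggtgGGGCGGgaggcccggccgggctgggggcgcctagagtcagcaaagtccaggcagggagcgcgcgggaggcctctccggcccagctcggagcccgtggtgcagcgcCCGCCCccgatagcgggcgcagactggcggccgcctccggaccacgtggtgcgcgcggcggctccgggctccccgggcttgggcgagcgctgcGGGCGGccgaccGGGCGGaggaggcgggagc

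The *Pdyn* promoter held TATAAA once, starting at base -13 from the annotated start, a motif that 12.9% of all 33469 promoters in the table hold within the same 250 bases. The *Oprd1* promoter held GGGCGG 4 times on both strands together, and 30.5% of all promoters hold it at least once. G and C made up 59.2% of the *Pdyn* stretch and 79.6% of the *Oprd1* stretch, against a median of 51.2% over all promoters. Neither stretch held the cyclic AMP response element TGACGTCA, found in 1.59% of promoters, the AP-1 site TGACTCA, found in 4.05%, or the enkephalin enhancer element TGCGTCA, found in 1.66%. The 2 *Oprm1* entries held none of the 5 motifs. These matches describe the letters in this window and show no binding.

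*Penk* had another order of regions. Its level was highest in the CVLM (717 ± 141 CPM, n = 46), lower in the NTS (557 ± 101 CPM) and lowest in the RVLM (283 ± 130 CPM). The CVLM exceeded the RVLM in 45 of 46 rats, by a log2 difference of 1.48 (SE 0.10, adjusted p = 6.9e-25), and the NTS exceeded the RVLM in 45 of 46 rats, by 1.12 (SE 0.10, adjusted p = 9.9e-19). Between the NTS and CVLM the log2 difference was -0.36 (SE 0.09, adjusted p = 0.000537), with the NTS higher in 6 of 46 rats.

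*Pnoc* was highest in the NTS (18.9 ± 5.63 CPM), lower in the CVLM (13.0 ± 3.52 CPM) and lowest in the RVLM (6.16 ± 3.41 CPM). The NTS exceeded the CVLM by a log2 difference of 0.50 (SE 0.10, adjusted p = 3.9e-06) and the CVLM exceeded the RVLM by 1.22 (SE 0.10, adjusted p = 8.8e-19). The NTS was above the RVLM in 46 of 46 rats.

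Among the receptors, *Oprk1* followed the same order, with 15.3 ± 3.64 CPM in the NTS, 10.7 ± 2.48 CPM in the CVLM and 8.89 ± 4.10 CPM in the RVLM. All 3 differences were called, at log2 0.89 for NTS against RVLM, 0.48 for NTS against CVLM and 0.41 for CVLM against RVLM (SE 0.09, 0.08 and 0.09). *Oprm1* was higher in the NTS (2.87 ± 0.830 CPM) than in the CVLM (1.29 ± 0.587 CPM) and RVLM (1.32 ± 0.931 CPM), with log2 differences of 1.20 (SE 0.14) and 1.32 (SE 0.15). Its CVLM and RVLM levels did not differ beyond their spread (log2 0.12, 95% confidence interval, CI, -0.19 to 0.43). In the RefSeq table the *Oprm1* gene overlaps *Ipcef1*, and the counting is not stated to use strand, so reads of the overlap may belong to either gene. The same holds for *Pdyn* and *LOC120101661*.

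*Oprd1* was highest in the CVLM (1.25 ± 1.02 CPM), against 0.423 ± 0.341 CPM in the NTS and 0.572 ± 0.423 CPM in the RVLM. The CVLM exceeded the NTS by a log2 difference of 1.35 (listed as NTS minus CVLM, -1.35, SE 0.23, adjusted p = 3.26e-07) and the RVLM by 0.99 (SE 0.23, adjusted p = 0.000138). The NTS and RVLM did not differ beyond their spread (NTS minus RVLM -0.36, CI -0.85 to 0.13). *Oprd1* entered these tests only because a gene was kept when it passed the filter in 1 region, here the CVLM, the region where it is highest, so its 2 calls, counted among the 18, are given as a description and not as support. *Oprl1* was nearly even across regions, with 39.2 ± 6.70, 37.0 ± 5.08 and 35.8 ± 5.29 CPM in the NTS, CVLM and RVLM and log2 differences of 0.14 at most. Small as they were, its differences of the NTS from the RVLM (0.14, SE 0.04, adjusted p = 0.00185) and CVLM (0.10, SE 0.04, adjusted p = 0.0311) were called. The CVLM and RVLM did not differ beyond their spread (0.04, CI -0.04 to 0.12).

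**Figure D1:**
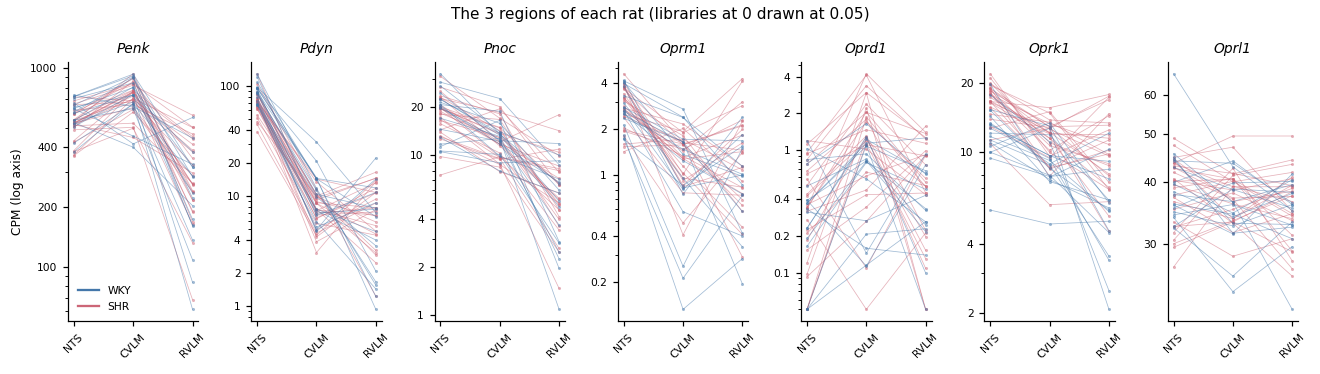
CPM of the 7 genes in the 3 regions of each rat on log axes, 1 line per rat, coloured by strain, with libraries at 0 drawn at 0.05. *Pdyn* lines drop from the NTS to both other regions in 46 of 46 rats, *Penk* is higher in the NTS than in the CVLM in 6 of 46 rats, and *Oprl1* lines stay nearly level.

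The second question was whether SHRs and WKY rats differed. In the mean over the 5 ages, 6 of 19 gene by region tests were called, 3 of 6 in the NTS, 2 of 7 in the CVLM and 1 of 6 in the RVLM, with a background of 11.2%, 12.3% and 10.8% of all genes called in these regions. The kappa receptor gene *Oprk1* was higher in SHRs in all 3 regions, *Oprd1* was higher in SHRs in the CVLM, and *Penk* and *Pdyn* were lower in SHRs in the NTS. The *Oprd1* call is 1 of the 2 in the CVLM and is given as a description, not as support. That gene passed the filter by its largest values, and the highest were those of SHRs. DESeq2 made 6 calls as well.

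*Oprk1* had the firmest difference. In the NTS, the lowest, median and highest levels were 5.61, 12.4 and 19.7 CPM in 18 WKY rats and 10.9, 17.5 and 21.9 CPM in 28 SHRs. In the CVLM they were 4.88, 9.05 and 13.4 CPM in WKY rats and 5.92, 12.0 and 15.6 CPM in SHRs. In the RVLM they were 2.08, 5.67 and 12.1 CPM in WKY rats and 4.53, 10.0 and 17.8 CPM in SHRs. The ranges of the strains overlapped in each region, and the SHR median stood above the WKY median in each. The level was above the median of the WKY rats of the same age in 25 of 28 SHRs in the NTS, 23 of 28 in the CVLM and 27 of 28 in the RVLM.

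The fitted mean strain difference of *Oprk1* was log2 0.47 for NTS tissue (SE 0.09, adjusted p = 7.68e-05), 0.32 for CVLM tissue (SE 0.09, adjusted p = 0.0141) and 0.79 for RVLM tissue (SE 0.15, adjusted p = 0.000185). The NTS and RVLM calls held in each of 9 alternative fits at the same threshold and when each of the 46 rats was left out in turn. The CVLM call held in all 46 refits without 1 rat and was lost with the replicate number of the titles as a block (log2 0.25, adjusted p = 0.105).

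**Figure D2:**
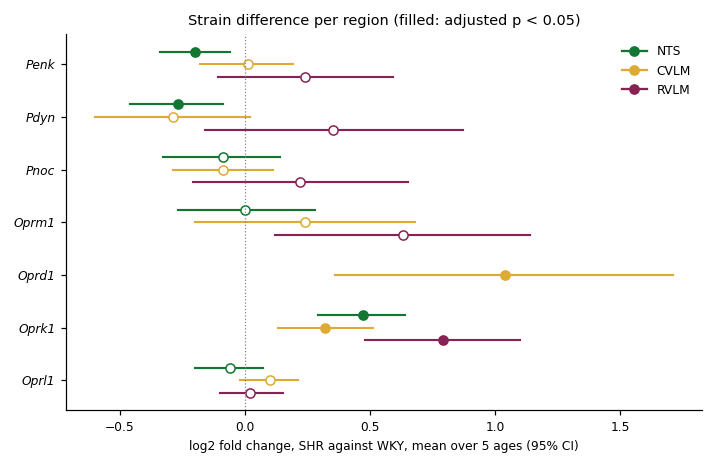
Log2 fold change of SHRs against WKY rats in the mean over 5 ages, with 95% CI, for each gene and region, filled where the adjusted p was under 0.05. *Oprk1* lies right of 0 in all 3 regions, at 0.47, 0.32 and 0.79, and *Oprd1* is drawn for the CVLM only, where it was tested.

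At single ages, *Oprk1* was called for NTS tissue of 10 wk and of 12 wk. At 10 wk, the 4 WKY rats had 11.7, 10.0, 12.7 and 13.2 CPM and the 5 SHRs 17.3, 18.3, 18.5, 18.9 and 19.8 CPM, so that every SHR was above every WKY rat (log2 0.69, SE 0.18, adjusted p = 0.0208, with 4.44% of genes called). At 12 wk, the 3 WKY rats had 5.61, 10.6 and 11.0 CPM and the 6 SHRs a lowest, median and highest level of 10.9, 17.6 and 21.0 CPM, with 5 of 6 SHRs above all WKY rats (log2 0.93, SE 0.20, adjusted p = 0.00334, background 3.1%). At 24 wk the means of both strains were 16.4 CPM (log2 -0.01, CI -0.41 to 0.38). The differences at 8 wk (log2 0.32) and 16 wk (0.42) were not called, with adjusted p of 0.259 and 0.728.

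The WKY rats of 12 wk held the lowest *Oprk1* value of the NTS, 5.61 CPM, and without that rat the 12 wk difference was log2 0.71, with an adjusted p of 0.0939. The 12 wk call was also lost with that age fitted on its own (log2 0.92, adjusted p = 0.176). The call at 10 wk was lost without WKY replicate 1 or replicate 2 of that age, with an adjusted p of 0.0893 at most. The change of the strain difference over the 5 ages was itself not called for *Oprk1* in the NTS (F test over 4 terms, unadjusted p = 0.0171, adjusted p = 0.385).

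In the RVLM, *Oprk1* was called at 8 wk, the youngest age. The 5 WKY rats had 4.57, 3.54, 2.51, 6.19 and 2.08 CPM and the 5 SHRs 5.28, 9.62, 8.05, 12.5 and 7.40 CPM. Of the SHRs, 4 of 5 lay above every WKY rat. The log2 difference was 1.16 (SE 0.32, adjusted p = 0.018, background 9.78%). It was lost without the libraries whose name ends in 2 outside 10 wk, which are 3 of the 5 WKY rats at this age (log2 1.04, adjusted p = 0.354), with that ending as a term in the fit (1.20, adjusted p = 0.0668), without WKY replicate 3 or SHR replicate 4 of 8 wk (adjusted p of 0.071 at most) and with 8 wk fitted on its own (1.17, adjusted p = 0.0972).

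At the later ages *Oprk1* kept its sign in the RVLM, at log2 1.02, 0.58, 0.46 and 0.72 at 10, 12, 16 and 24 wk, and none of these was called (adjusted p of 0.112 to 1). At 12 wk all 6 SHRs lay above the 3 WKY rats, with 6.10 to 11.3 CPM against 5.02 to 6.04 CPM. In the CVLM, log2 differences at the 5 ages were 0.09, 0.38, 0.16, 0.44 and 0.55, and none was called. At 24 wk all 6 SHRs (10.2 to 12.9 CPM) lay above the 3 WKY rats (7.46 to 8.50 CPM) in the CVLM. The adjusted p was 0.999 for the RVLM at 12 wk and 0.121 for the CVLM at 24 wk. For these and the other separations of small groups given here, the share of all genes that separate likewise was not counted.

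**Figure D3:**
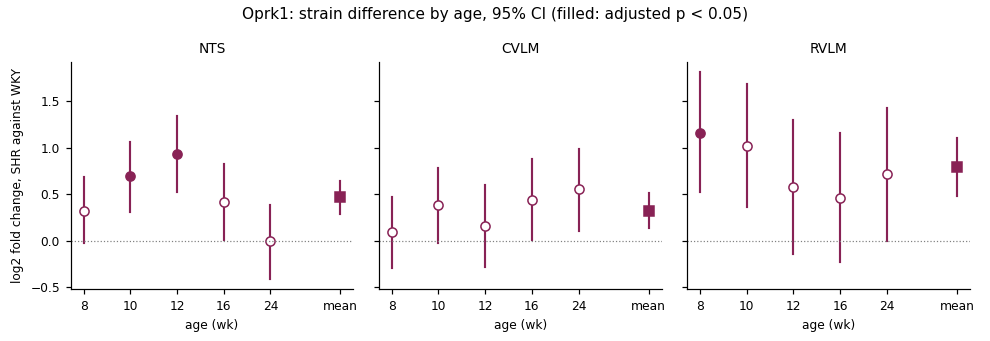
Log2 fold change of *Oprk1* in SHRs against WKY rats at each age (circles) and in the mean over ages (squares), with 95% CI, per region. The NTS difference is 0.93 at 12 wk and -0.01 at 24 wk, and the RVLM difference is above 0 at each age.

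The strain difference of *Oprk1* was 0.56 smaller on the log2 scale in the CVLM than in the RVLM (listed as CVLM minus RVLM, -0.56, SE 0.18), with an unadjusted p of 0.00184 and an adjusted p of 0.186. None of 21 differences of a strain effect between regions was called for the family by edgeR or by limma voom, and 7 had an unadjusted p under 0.05. The background was 1.93% of genes for NTS against RVLM, 0.328% for NTS against CVLM and 0.385% for CVLM against RVLM.

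Neuronal markers moved with *Oprk1* in part. In RVLM libraries, the summed level of *Gad1*, *Gad2* and *Slc32a1*, markers of GABAergic neurons, ran from 80.2 to 377 CPM (median 170) in WKY rats and from 105 to 441 CPM (median 202) in SHRs, and the glycinergic marker *Slc6a5* from 34.5 to 204 CPM (median 102) and from 42.4 to 264 CPM (median 128). Mean strain differences there were log2 0.29 for *Gad1* and 0.40 for *Slc6a5*, neither called (adjusted p of 0.351 and 0.182). The glutamatergic *Slc17a6* and *Slc17a7* were at 0.24 and 0.60 (adjusted p of 0.269 and 0.126). Of 6 catecholaminergic markers 0 were called there by edgeR, with a median log2 difference of 0.5. Among them were *Dbh* at 0.77 (adjusted p = 0.0938), *Th* at 0.57 (adjusted p = 0.131) and *Ddc* at -0.11. The median of that list was -0.22 in the NTS and 0.08 in the CVLM. Over deviations from the group means of 46 RVLM libraries, *Oprk1* had a Pearson r of 0.81 with *Slc6a5*, 0.81 with the glutamatergic marker *Slc17a6*, 0.75 with *Gad1* and -0.41 with *Chat*. These points share depth and punch within a library, and the part of the cell make-up in the *Oprk1* difference was not tested. In the NTS, the GABAergic sum had medians of 566 CPM in WKY rats and 497 CPM in SHRs, opposite in order to *Oprk1*. *Gad1* was lower in SHRs there (log2 -0.23, adjusted p = 0.0231), while *Gad2* and *Slc32a1* were at -0.03 and -0.02, not called. *Slc6a5* had the same order as *Oprk1* there, with medians of 78.7 and 99.3 CPM (log2 0.26, unadjusted p = 0.0157, adjusted p = 0.106), and *Oprk1* had r of 0.50 with *Slc17a6*, 0.30 with *Slc6a5* and 0.16 with *Gad1*. In the CVLM these medians were 408 and 358 CPM, and those of *Slc6a5* were 175 and 162 CPM, with r of *Oprk1* of 0.70 with *Slc6a5*, 0.61 with *Slc17a6* and 0.59 with *Gad1*. Not all neuronal markers went this way. With the general neuronal marker *Rbfox3*, *Oprk1* had r of -0.39, -0.26 and -0.12 in the NTS, CVLM and RVLM. With *Slc32a1* the values were -0.23, -0.03 and 0.39.

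The sums of 5 general neuronal markers had medians of 5147 and 5281 CPM in the NTS, 8262 and 7825 CPM in the CVLM and 17491 and 14374 CPM in the RVLM of WKY rats and SHRs, with 0 of 5 called in any region by edgeR. Most of the RVLM sum is *Nefl* (13800 and 12300 CPM, log2 -0.09). The median log2 difference of the list in the RVLM was 0.14, with *Syt1* at 0.42 (unadjusted p = 0.00669, adjusted p = 0.0587), *Rbfox3* at 0.18, *Elavl4* at 0.14 (unadjusted p = 0.00583, adjusted p = 0.053) and *Snap25* at -0.03. Markers of red cells were lower in SHRs, with medians of their sum of 687 against 394 CPM in the RVLM and 3 of 3 called there and in the CVLM, 1 of 3 in the NTS. In the NTS 2 of 3 tested choroid plexus markers were lower in SHRs, where the sum of the list had medians of 3.74 CPM in WKY rats and 3.45 CPM in SHRs and highest values of 4338 and 6.88 CPM. In the CVLM *Kl*, of the same list, was higher in SHRs (log2 1.93, adjusted p = 3.71e-08).

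Markers of other cells moved with strain as well. Of 5 oligodendrocyte markers, 1, 3 and 2 were lower in SHRs (NTS, CVLM and RVLM in this order), among them *Mobp* each time (log2 -0.72, -0.99 and -0.94). Of 5 microglia markers 1, 2 and 1 were lower, with *Tmem119* among them in each region (log2 -0.32, -0.37 and -0.27). In the NTS the ependymal *Ccdc153* was lower (log2 -1.77, adjusted p = 4.08e-05) and the endothelial *Cdh5* higher (0.33, adjusted p = 0.0253), and in the RVLM the astrocyte marker *Aldh1l1* (0.36, adjusted p = 0.00151) and the leptomeningeal *Slc6a13* (0.57, adjusted p = 0.0109) were higher. The part of these cells in the results was not tested.

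*Oprd1*, the delta receptor gene, was higher in SHRs in the CVLM. The lowest, median and highest levels were 0.113, 0.814 and 1.65 CPM in 18 WKY rats and 0, 1.30 and 4.22 CPM in 28 SHRs, and 12 of 28 SHRs lay above all WKY rats. The mean log2 difference was 1.04 (SE 0.33, CI 0.36 to 1.71, adjusted p = 0.0325). The call rests on few counts, a median of 10.5 per library, and the gene passed the filter only in this region. The filter went by the largest value of any library, and the highest levels were those of SHRs. The call, counted among those of the mean over ages, is therefore given as a description and not as support. The difference was also called with no filter on low counts (log2 1.05, adjusted p = 0.0403). It was lost in 6 of 46 refits without 1 rat (without WKY replicate 1 of 12, 16 or 24 wk, WKY replicate 2 of 24 wk, or SHR replicates 2 or 5 of 8 wk, with an adjusted p of 0.0685 at most), with the replicate block (0.92, adjusted p = 0.085), without the 2 CVLM libraries with conflicting age labels (0.99, adjusted p = 0.0623) and without the libraries whose name ends in 2 outside 10 wk (0.97, adjusted p = 0.104).

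At 10 wk, *Oprd1* in the CVLM was at 0.144, 1.23, 1.08 and 0.265 CPM in the 4 WKY rats and at 1.79, 2.04, 4.11, 3.37 and 1.11 CPM in the 5 SHRs, so 4 of 5 SHRs were above all WKY rats. This log2 difference of 1.84 (SE 0.66) was not called (adjusted p = 0.164, background 3.18%). In the NTS and RVLM, where the gene was not tested, mean levels were 0.408 and 0.433 CPM and 0.441 and 0.657 CPM in WKY rats and SHRs. Within CVLM libraries the deviations of *Oprd1* had a Pearson r of 0.72 with those of *Rbfox3*, a marker of mature neurons (46 libraries), and the log2 strain difference of *Rbfox3* was 0.07 (adjusted p = 0.833).

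*Oprm1*, the mu receptor gene, gave no call. In the RVLM its lowest, median and highest levels were 0.195, 0.921 and 2.38 CPM in WKY rats and 0.292, 1.27 and 4.25 CPM in SHRs. The mean log2 difference was 0.63 (CI 0.12 to 1.14, unadjusted p = 0.0174, adjusted p = 0.119). At 10 wk the 4 WKY rats had 0.400, 0.578, 0.340 and 0.285 CPM and the 5 SHRs 0.738, 2.24, 1.12, 0.292 and 1.42 CPM, so 4 of 5 SHRs were above all WKY rats (log2 1.52, adjusted p = 0.289, background 2.3%). At 24 wk the SHRs split into 3 rats at 3.00 to 4.25 CPM and 3 at 0.757 to 0.832 CPM. In the NTS the means were 2.87 CPM in WKY rats and 2.86 CPM in SHRs (CI of the log2 difference -0.27 to 0.28), and in the CVLM the difference was 0.24 (CI -0.20 to 0.68).

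*Oprl1*, the nociceptin receptor gene, differed by log2 -0.06 (CI -0.20 to 0.07) in the NTS, 0.10 (CI -0.02 to 0.21) in the CVLM and 0.02 (CI -0.10 to 0.15) in the RVLM. These intervals are the narrowest of the family.

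**Figure D4:**
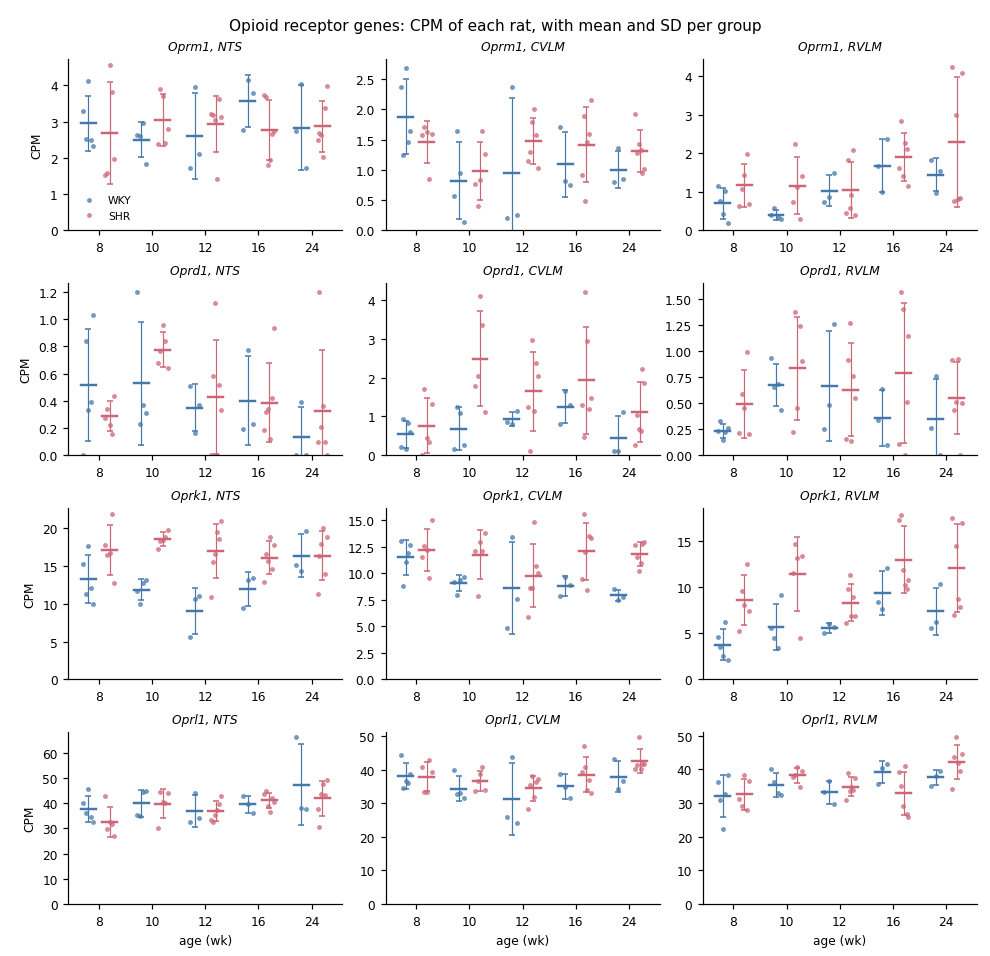
CPM of the 4 receptor genes in each rat by age, strain and region, with the mean and SD of each group as bars. *Oprk1* in the NTS separates the strains at 10 wk (17.3 to 19.8 against 10.0 to 13.2 CPM), and *Oprd1* reaches at most 4.22 CPM.

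Of the precursor genes, *Pdyn* was lower in SHRs in the NTS. The lowest, median and highest levels were 67.5, 88.3 and 128 CPM in WKY rats and 38.4, 72.2 and 129 CPM in SHRs. The mean log2 difference was -0.27 (SE 0.09, adjusted p = 0.0448), and 18 of 28 SHRs were below every WKY rat of their age. At 8 wk the 5 WKY rats had 73.2, 97.2, 84.7, 95.6 and 108 CPM and the 5 SHRs 72.4, 71.9, 73.6, 66.2 and 54.4 CPM, which overlapped only between 73.2 and 73.6 CPM (log2 -0.47, adjusted p = 0.125, background 5.79%). At 24 wk the order was turned, with 68.1 ± 0.892 CPM in 3 WKY rats and 78.2 ± 28.3 CPM in 6 SHRs (log2 0.19, not called, background 2.46%). The change of the difference with age was not called (adjusted p = 0.544).

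*Penk* was lower in SHRs in the NTS, at the edge of the threshold. The lowest, median and highest levels were 380, 614 and 735 CPM in WKY rats and 364, 530 and 719 CPM in SHRs, and 19 of 28 SHRs were below every WKY rat of their age. The mean log2 difference was -0.20 (SE 0.07, adjusted p = 0.0497). At 24 wk the 3 WKY rats had 652, 638 and 603 CPM and the 6 SHRs 514 to 596 CPM, without overlap, and this age alone gave no call (log2 -0.22, adjusted p = 0.608). At 8 wk the means were 551 ± 158 CPM in WKY rats and 555 ± 87.0 CPM in SHRs. The WKY libraries of that age split by the ending of their name, at 705 and 723 CPM with the ending 1 and at 380, 421 and 527 CPM with the ending 2, while the 5 SHR libraries, all with the ending 1, were at 433 to 657 CPM. *Pnoc* split in the same way, at 32.3 and 28.6 CPM against 10.5, 10.6 and 11.3 CPM in WKY rats, with SHRs at 14.4 to 31.1 CPM. Without the libraries ending in 2 outside 10 wk, the mean *Penk* difference was log2 -0.26 (adjusted p = 0.0033).

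The NTS calls of *Penk* and *Pdyn* were close to the threshold and were lost under small changes. *Penk* was called in 11 and *Pdyn* in 14 of 46 refits without 1 rat, and each in 5 of 9 alternative fits, with the sign kept in those 9 fits. The replicate block gave -0.13 for *Penk* (adjusted p = 0.193) and -0.30 for *Pdyn* (adjusted p = 0.0301). Their counts of SHRs below every WKY rat of their age, 19 and 18 of 28, were near that of *Pnoc*. *Pnoc* in the NTS had 16 of 28 and was not called (log2 -0.09, adjusted p = 0.758). The share of all genes with such counts was not determined.

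In the CVLM, *Pdyn* differed with age in WKY rats. The 5 WKY rats of 8 wk had 7.42, 31.0, 11.3, 20.8 and 14.3 CPM and the 3 of 24 wk 5.86, 7.01 and 5.24 CPM, so the older rats lay below all younger ones. The log2 difference was -1.45 (SE 0.38, adjusted p = 0.0107), the 1 call among 38 comparisons of 24 with 8 wk, in a comparison with a background of 13.7%. In SHRs, levels were 8.62, 14.3, 13.5, 8.92 and 8.60 CPM at 8 wk and 3.86 to 10.4 CPM at 24 wk (log2 -0.55, adjusted p = 0.704, background 0.649%). In the order of the ages the WKY means were 17.0, 11.1, 12.9, 5.46 and 6.04 CPM and the SHR means 10.8, 7.87, 7.58, 6.39 and 7.30 CPM. The WKY call was lost without replicate 1 or 3 of 24 wk (adjusted p of 0.0748 at most), without the libraries whose name ends in 2 outside 10 wk (-1.63, adjusted p = 0.106) and with the 8 rats fitted on their own (-1.44, adjusted p = 0.101).

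The remaining comparisons of 24 with 8 wk gave no call for the family in either strain, with backgrounds of 0.464% and 0.179% in the NTS and RVLM of WKY rats and 0.232% and 0.358% in those of SHRs. In the RVLM *Oprl1* of SHRs had 42.2 ± 5.16 CPM at 24 wk and 32.6 ± 4.64 CPM at 8 wk (log2 0.38, unadjusted p = 0.00306, adjusted p = 0.287), and in the CVLM *Pnoc* of SHRs had 11.8 ± 2.57 and 17.9 ± 2.10 CPM (log2 -0.59, unadjusted p = 0.00445, adjusted p = 0.229). For the strain difference over age, 0 of 19 tests were called by edgeR and by DESeq2 and 1 had an unadjusted p under 0.05, with backgrounds of 0.0145%, 0.0224% and 0.00746% in the NTS, CVLM and RVLM. Among all genes, 1677 of 13793, 1612 of 13408 and 762 of 13411 had an unadjusted p under 0.05 there.

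Over single ages, the 3 calls of *Oprk1* were all that edgeR made in 95 tests of the family, and 15 had an unadjusted p under 0.05. Among all genes, those with an unadjusted p under 0.05 ran from 742 of 13411 (RVLM, 16 wk) to 3704 of 13411 (RVLM, 8 wk). The 15 are therefore not read as a result about the family. At the ages without a call, the backgrounds were 1.73% at 16 wk in the NTS, 7.64%, 2.62%, 2.27% and 7.13% at 8, 12, 16 and 24 wk in the CVLM, and 1.7%, 1.65% and 2.24% at 12, 16 and 24 wk in the RVLM.

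In the CVLM and RVLM the precursor genes gave no strain call. *Pdyn* differed by log2 -0.29 (CI -0.60 to 0.02) in the CVLM and 0.35 (CI -0.16 to 0.87) in the RVLM, *Penk* by 0.01 (CI -0.18 to 0.19) and 0.24 (CI -0.11 to 0.59), and *Pnoc* by -0.09 (CI -0.29 to 0.11) and 0.22 (CI -0.21 to 0.65). *Pnoc* in the NTS differed by -0.09 (CI -0.33 to 0.14). In the RVLM the spread between rats was wide, with an SD of 45.9% of the mean for *Penk*, 63.9% for *Pdyn* and 55.4% for *Pnoc*, against 18.1%, 24.9% and 29.8% in the NTS.

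**Figure D5:**
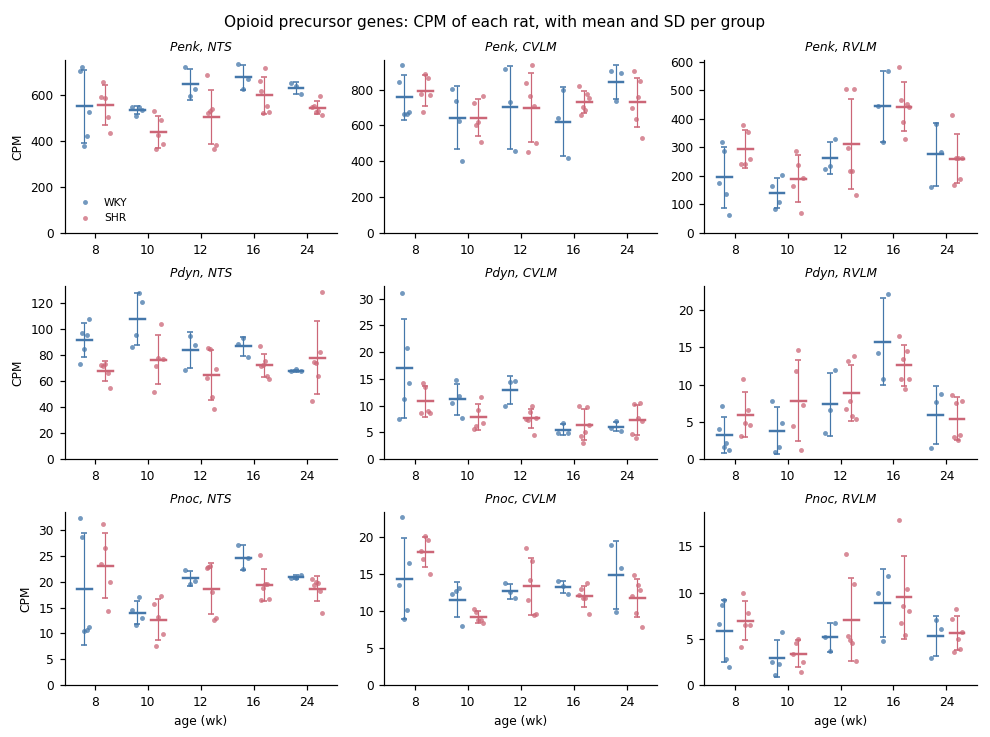
CPM of the 3 precursor genes in each rat by age, strain and region, with the mean and SD of each group as bars. *Pdyn* in the CVLM of WKY rats is at 7.42 to 31.0 CPM at 8 wk and at 5.24 to 7.01 CPM at 24 wk, and the RVLM panels show the widest spread.

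Some pairs of members varied together from rat to rat and others did not. Over all pairs, r ran from -0.34 (*Penk* with *Oprk1*) to 0.82 for NTS libraries, from -0.24 (*Pdyn* with *Oprl1*) to 0.62 in the CVLM and from -0.29 (*Penk* with *Oprl1*) to 0.90 in the RVLM. Over deviations from the group means of 46 libraries, *Penk* and *Pnoc* had a Pearson r of 0.82 (NTS), 0.62 (CVLM) and 0.90 (RVLM). *Penk* and *Pdyn* had r of 0.11, 0.19 and 0.75, and *Oprk1* had r of 0.14, 0.00 and 0.69 with *Pdyn* and of 0.12, 0.45 and 0.70 with *Oprm1*. In the RVLM, *Penk* had r of 0.76 with *Slc32a1* and -0.70 with *Chat*, and *Pdyn* r of 0.83 with *Gad1*. These values describe punches that share depth and tissue content within a library, and no test was made of them.

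Genes with the most similar pattern were sought among 13070 genes (13071 for *Oprd1*). Over the 30 means of region, strain and age, *Pdyn* was most like *Pgm5*, *Klhdc8b* and *Cpne5* (r of 0.968, 0.961 and 0.960), *Penk* like *Prrt2*, *LOC100912228* and *Ppme1* (0.960, 0.957 and 0.949) and *Pnoc* like *Resp18*, *Nrsn2* and *Celf4* (0.982, 0.976 and 0.972). The receptors had weaker matches, *Oprk1* with *S100pbp*, *Nlgn3* and *Strip2* (0.926, 0.888 and 0.887), *Oprm1* with *Synpo2*, *Arg2* and *Igsf5* (0.901, 0.888 and 0.882), *Oprd1* with *Sh3gl2*, *Dtnb* and *Adarb1* (0.881, 0.841 and 0.827) and *Oprl1* with *Nedd4*, *Cplane1* and *Ep400* (0.758, 0.726 and 0.716). Over the deviations of all libraries from these means, the first matches were *Nrsn2*, *Pnck* and *Crabp1* for *Penk* (0.906, 0.892 and 0.884), *Hpcal4*, *Zcchc12* and *Pth2r* for *Pdyn* (0.728, 0.722 and 0.712) and *Nrsn2*, *Caly* and *Penk* for *Pnoc* (0.858, 0.833 and 0.831). For the receptors they were *Usp29*, *Gprasp1* and *Chl1* for *Oprk1* (0.764, 0.756 and 0.733), *Scn3b*, *Grb10* and *Syt1* for *Oprm1* (0.593, 0.569 and 0.567), *Rgmb*, *Rhbdl3* and *Irgq* for *Oprd1* (0.705, 0.701 and 0.701) and *Tollip*, *AABR07064804.1* and *Ganab* for *Oprl1* (0.679, 0.675 and 0.672).

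The genes around the family were read from 6 lists with 67 genes, of which 58 were tested in each region. In SHRs 2 were higher and 5 lower in the NTS, and 1 higher and 7 lower in the CVLM. In the RVLM 1 was higher and 4 were lower. The background for the mean over ages was 11.2%, 12.3% and 10.8% of all genes called in the NTS, CVLM and RVLM. The 58 genes were thus called about as often as all genes, and whether any single list was called more often was not tested. The median log2 difference over the tested genes was 0.01 in each region, as it was over all genes in the NTS.

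Among regulators of the precursor genes, 1 of 8 tested was called in each region, and it was *Kcnip3* throughout. The study had already reported *Kcnip3* as lower in SHRs across the regions. The lists were chosen with earlier results of these data known, so this call is a description and not independent support. *Kcnip3* encodes DREAM, a calcium-binding protein known as a repressor of *Pdyn* transcription and as a partner of potassium channels. Its lowest, median and highest levels in the NTS were 18.2, 25.0 and 34.3 CPM in WKY rats and 8.04, 10.8 and 16.1 CPM in SHRs, so that all 28 SHRs were below every WKY rat. The log2 difference was -1.14 in the NTS (SE 0.07, adjusted p = 1.16e-16). It was -1.10 for CVLM tissue (SE 0.06, adjusted p = 9.72e-18) and -1.37 for RVLM tissue (SE 0.08, adjusted p = 3.66e-18). In the RVLM 28 of 28 SHRs and in the CVLM 27 of 28 lay below every WKY rat. *Pdyn* itself was called in the NTS only, where it too was lower in SHRs, in a call close to the threshold. Whether the level of *Kcnip3* bears on that of *Pdyn* was not tested.

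Among the 13 tested genes of desensitisation, *Rgs19* alone was called, and it was lower in SHRs in each region. *Rgs19* encodes a regulator that ends signalling by inhibitory G proteins. NTS, CVLM and RVLM had log2 differences of -0.41, -0.53 and -0.61 (SE 0.07, 0.06 and 0.06; adjusted p of 6.76e-06, 1.8e-09 and 1.04e-11), and in the RVLM 27 of 28 SHRs were below every WKY rat (18.7 to 29.3 CPM against 29.2 to 50.6 CPM).

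Of 18 tested G proteins and effectors, 2 adenylyl cyclases, enzymes that opioid receptors inhibit, were called in opposite directions. *Adcy6* was higher in SHRs in the NTS (5.30 against 3.90 CPM, log2 0.48, adjusted p = 0.00917) and CVLM (log2 0.43, adjusted p = 0.00231), and *Adcy5* was lower in the NTS (12.6 against 15.4 CPM, log2 -0.29, adjusted p = 0.0215) and CVLM (log2 -0.28, adjusted p = 0.000634). None of the 18 was called in the RVLM by edgeR, where *Adcy6* differed by 0.30 and *Adcy5* by -0.20.

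Of 8 tested genes of precursor processing, *Pcsk1*, the convertase that makes the first cuts in the precursors, was lower in SHRs in the NTS (53.3 ± 11.5 against 64.4 ± 10.6 CPM, log2 -0.27, SE 0.08, adjusted p = 0.0302) and not called elsewhere (0.07 and 0.11). *Ctsl*, a protease that can also cut proenkephalin, was lower in the CVLM (log2 -0.24, adjusted p = 5.25e-06) and RVLM (log2 -0.19, adjusted p = 0.0423). Of 7 genes of peptide breakdown, *Anpep*, an aminopeptidase that degrades enkephalins, was higher in SHRs in the NTS (log2 0.56, adjusted p = 0.0228) and RVLM (0.59, adjusted p = 0.00293), and *Ace*, the angiotensin-converting enzyme, which can also cleave enkephalins, was lower in the NTS (-0.31, adjusted p = 0.0167) and CVLM (-0.19, adjusted p = 0.0225). Of 4 tested related peptides and receptors, *Ogfr*, which binds an enkephalin as a growth factor, was lower in the CVLM (-0.14, adjusted p = 0.0385) and RVLM (-0.20, adjusted p = 0.029), and *Ackr3*, a scavenger receptor that can take up opioid peptides, was lower in the CVLM (-0.23, adjusted p = 0.0168).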

How the data were processed

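Total RNA of tissue punches was sequenced in 46 rats by 3 regions, 1 library each. Per the study's methods, the authors aligned reads to rn6 with STAR within RSEM and deposited 1 table of expected counts per region. Of the deposited expected counts above 0, 9.80% were not whole, and they were rounded for the tests. A batch adjustment of counts is named in the methods, and whether it is in the tables is not given in the sources used here.

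Genes were kept in a region where the largest regularised log2 value was at least 3.5. Counts were fitted per region in edgeR 4.0.16 (R 4.3.3) with TMM factors, 1 coefficient for each of 10 groups of strain and age and the quasi-likelihood F test, and p-values were Benjamini-Hochberg adjusted over all genes of a comparison, called under 0.05. Regions were compared in 1 fit over the 3 regions, blocked by animal. CPM used TMM factors over all libraries. Alternatives used DESeq2 1.42.0, limma 3.58.1 (voom), other scalings, filters and covariates, and refits without each rat. All members are named. Of the other genes of the pathway, those called in the mean over ages in at least 1 region are named, at most the 3 with the largest log2 difference per list. Genes most like a member are the first 3 by Pearson r over the 30 means and over the deviations from them. Nothing says whether rats shared litters, and no 2 libraries agreed closely enough to be the same library (0 pairs). Scripts were tested on simulated data. The members and the lists were chosen with earlier results of these data known.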

Additional observations from a re-analysis of the deposited data

Results flagged for a closer look

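Within groups of 4 to 6 rats, 9 of 147 groups held 1 library that stood far from the others by Dixon's test, which chance gives in about 1 of 20 groups. *Pnoc* in the NTS was at 25.1 CPM in SHR replicate 1 of 16 wk, with the other rats at 16.4 to 19.6 CPM. It was at 13.9 CPM in SHR replicate 6 of 24 wk, with the others at 18.3 to 20.6 CPM, and in the CVLM at 7.95 CPM in WKY replicate 4 of 10 wk, with the others at 12.2 to 13.1 CPM. *Oprm1* in the NTS was at 1.42 CPM in SHR replicate 4 of 12 wk, with the others at 3.04 to 3.62 CPM, and in the CVLM at 0.857 CPM in SHR replicate 4 of 8 wk, with the others at 1.57 to 1.71 CPM. The scarce *Oprd1* in the NTS was at 1.20 CPM in WKY replicate 1 of 10 wk (others 0.231 to 0.369 CPM), at 0.938 CPM in SHR replicate 6 of 16 wk (others 0.120 to 0.422 CPM) and at 1.20 CPM in SHR replicate 2 of 24 wk (others 0 to 0.359 CPM). *Oprl1* in the CVLM was at 49.6 CPM in SHR replicate 3 of 24 wk, with the others at 40.1 to 41.7 CPM.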

How the results depend on the processing

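The 6 calls of the mean over ages became 3 with the replicate block and 0 at the strict threshold (adjusted p under 0.01 and a log2 difference over 1), and 3 to 7 without 1 rat. Deviations of same-numbered rats had an r over 0.1 in 32 of 54 pairs (median 0.16, from -0.34 to 0.57). No label ties the numbers to a litter or batch, and the main fits held no replicate block. These r values do not show that same-numbered rats share only a number, and what they share was not tested. With the replicate block the calls of *Penk* in the NTS and of *Oprd1* and *Oprk1* in the CVLM were lost. The 3 calls at single ages became 1 with each age fitted on its own (*Oprk1* in the NTS at 10 wk) and 0 at the strict threshold, and 2 to 4 without 1 rat. The 1 call of 24 against 8 wk became 0 without the libraries ending in 2 outside 10 wk, with both ages fitted on their own and at the strict threshold, and 0 to 1 without 1 rat. The 18 calls between regions became 9 at the strict threshold. Without WKY replicate 2 of 12 wk, *Oprm1* (log2 0.64, adjusted p = 0.0415) and *Oprl1* (0.16, adjusted p = 0.0291) were called in the CVLM. Differences that were not called changed sign in 13 instances. In the mean over ages these were *Pnoc* in the NTS with the replicate block (0.05), *Oprm1* in the NTS with DESeq2-type size factors, library totals and no filter (0 each) and without the libraries ending in 2 (-0.02), *Penk* in the CVLM with the ending as a term (-0.02) and *Oprl1* in the RVLM without the libraries ending in 2 (-0.01). For the strain difference between the NTS and CVLM they were *Pdyn* without the libraries ending in 2 (-0.01) and with voom (-0.02), and *Pnoc* without the animal block (-0.02), with voom (-0.02), without the rats with conflicting labels (0) and without the libraries ending in 2 (-0.05). The cause was not tested. Library totals without TMM factors were added after seeing the data. The low counts of *Oprd1* and *Oprm1* limit what could be detected for them.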
